A study of Mus musculus with 8 samples.

Results

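The miR-106b/93/25 cluster is a group of 3 microRNA (miRNA) hairpins inside the gene Mcm7, which encodes a subunit of the helicase that unwinds DNA for replication. Its 6 mature arms, the 5p and 3p product of each hairpin, were taken by name from the 1907 mature miRNAs listed for each library, and all 6 were present. They were measured by small RNA sequencing in bone marrow-derived macrophages of wild-type mice, labelled as 8 to 12 weeks old. In every sample, marrow precursors were grown for 6 days in L929 supernatant, a conditioned medium that supplies the growth factor M-CSF. The control group of 3 libraries stayed unstimulated, and the other 3 libraries came from cells given 100 ng/ml of lipopolysaccharide (LPS), a bacterial cell wall component sensed through Toll-like receptor 4, for 3 h. The labels do not say whether libraries came from separate mice or cultures, so p-values measure the spread between these libraries, which could be technical only. Another 2 samples of the series, for chromosome conformation, were not analysed here.

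As background, a miRNA is cut from a hairpin in a longer transcript, and 1 arm or the other is loaded into an Argonaute protein, where the seed near its 5′ end pairs with target messenger RNAs. The hairpins of this cluster lie in an intron of Mcm7, are made from the Mcm7 transcript, and are known as targets of the E2F factors that drive entry into S phase. miR-106b-5p and miR-93-5p repress the cell cycle inhibitor p21, and miR-25-3p represses the pro-apoptotic protein Bim. The same seeds recur in the paralogous miR-17-92 and miR-106a-363 clusters.

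The mature sequences are shown first because the seed decides which of the 6 arms can share targets with each other and with arms made elsewhere in the genome. They are RefSeq sequences of build GRCm38.p6, written 5′ to 3′, with the seed (bases 2 to 8) in capitals.
mmu-miR-106b-5p: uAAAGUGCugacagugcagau
mmu-miR-93-5p: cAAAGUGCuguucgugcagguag
mmu-miR-25-3p: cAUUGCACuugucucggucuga
mmu-miR-106b-3p: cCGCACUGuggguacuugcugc
mmu-miR-93-3p: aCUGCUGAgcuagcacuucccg
mmu-miR-25-5p: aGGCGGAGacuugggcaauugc
miR-106b-5p and miR-93-5p carry the same seed and were identical at 16 of the first 21 positions. miR-25-3p has a different seed, and the other 3 arms each have a seed of their own that no further miRNA shares among the 1623 of 1907 listed names with a RefSeq sequence. All 6 arms are 21 to 23 bases long, so a count stands for nearly the same length in each, and every arm name belongs to 1 hairpin.

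The 3 hairpins lie on the minus strand of chromosome 5 within 498 bases (138165321 to 138165818), inside the span of Mcm7 (138164583 to 138172111), which is on the same strand. In the order of transcription Mir106b comes first, Mir93 follows after a gap of 126 bases, and Mir25 after a further 118 bases. The hairpins are printed with both mature arms in capitals, because the ratio of these arms is measured below.
Mir106b, chr5:138165737-138165818: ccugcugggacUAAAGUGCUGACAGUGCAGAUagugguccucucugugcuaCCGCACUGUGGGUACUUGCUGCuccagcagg
Mir93, chr5:138165523-138165610: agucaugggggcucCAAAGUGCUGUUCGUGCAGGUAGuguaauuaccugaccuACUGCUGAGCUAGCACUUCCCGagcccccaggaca
Mir25, chr5:138165321-138165404: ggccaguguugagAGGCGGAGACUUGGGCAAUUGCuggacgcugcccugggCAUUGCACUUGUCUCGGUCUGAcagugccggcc

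The libraries held 3280688 to 4312555 miRNA counts. Both arms of miR-155, a miRNA known to rise when macrophages meet LPS, had log2 fold changes of 2.75 (SE 0.38) and 6.85 (SE 0.27), with groups that did not overlap for either arm. Of 4 macrophage and myeloid markers, 3 had counts in every library and summed to between 237000 and 312000 CPM (counts scaled to a common effective library size), while miR-142a-3p was at 0 in all 6. Markers of red blood, vessel and connective tissue cells were near 0, and whether they bear on any result was not tested. The 4 erythroid arms summed to at most 0.485 CPM in controls and to 0.490 to 1.58 CPM after LPS, with miR-144-3p and miR-486a-5p at 0, the 2 endothelial arms to at most 0.243 CPM, with miR-126a-5p at 0, and the 4 stromal arms to at most 2.21 CPM, with miR-145a-5p at 0. The 2 lymphocyte arms summed to 56.3 to 77.6 CPM and the 3 epithelial arms, without any miR-205-5p, to 114 to 153 CPM, with control and LPS ranges that overlapped for both lists.

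The first question was how strongly each arm of the cluster was present. miR-93-5p and miR-25-3p dominated at nearly equal levels, miR-106b-5p stood about a decade lower, and the 3 remaining arms ranged down to a few CPM. miR-93-5p was at 4050, 4313 and 4205 CPM in the control libraries and at 4046, 4202 and 4256 CPM after LPS, and it ranked 28 among all listed miRNAs by mean level. miR-25-3p was at 4159, 4067 and 4191 CPM in controls and at 3380, 3844 and 4855 CPM after LPS, and ranked 29. The control values of miR-25-3p lay close together and inside the wider LPS range, so its groups overlapped, as did those of miR-93-5p.

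**Figure D1:**
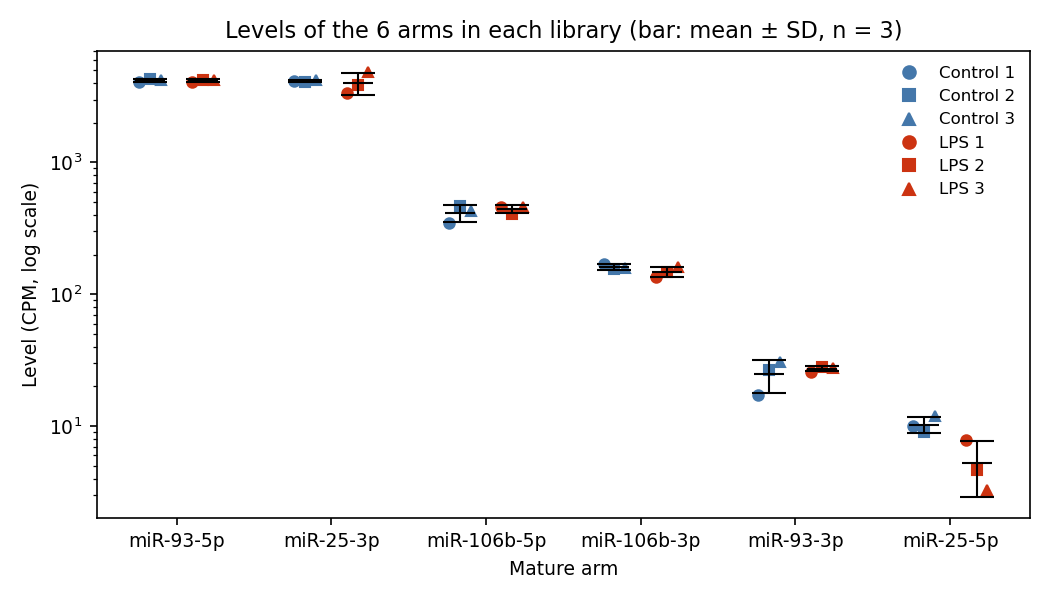
Levels of the 6 mature arms (CPM, log axis) in the 3 control libraries (blue) and the 3 LPS libraries (red), with black bars for mean ± SD of each group. miR-93-5p and miR-25-3p sit together near the top, and miR-25-5p is the one arm whose 3 LPS points all lie below its 3 control points.

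miR-106b-5p, which has the seed of miR-93-5p, was at 345.2, 465.3 and 429.2 CPM in controls and at 459.1, 405.5 and 460.9 CPM after LPS (rank 73). Its partner miR-106b-3p was at 170.5, 154.4 and 158.1 CPM in controls and at 135.5, 147.8 and 160.7 CPM after LPS (rank 109). For both arms of miR-106b the groups overlapped, and control replicate 1 held the lowest level of the 5p arm and the highest of the 3p arm. miR-93-3p was at 17.3, 26.5 and 30.8 CPM in controls and at 26.0, 28.2 and 27.7 CPM after LPS (rank 201), and control replicate 1 was again the low one.

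miR-25-5p was the least abundant arm, at 9.97, 8.98 and 11.9 CPM in controls and at 7.92, 4.66 and 3.30 CPM after LPS (rank 272). All 3 LPS libraries lay below all 3 control libraries. These levels rest on 42, 37 and 49 counts in controls and 25, 19 and 13 counts after LPS. Counting error alone gives 13 counts a 95% Poisson interval of 6.92 to 22.2 and 49 counts one of 36.3 to 64.8. Reads carry no molecular identifiers, so such intervals cover counting error only.

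In order of mean level the arms were miR-93-5p, miR-25-3p, miR-106b-5p, miR-106b-3p, miR-93-3p and miR-25-5p. The top pair did not differ beyond its spread, at 4189 ± 132 and 4139 ± 64.2 CPM in controls (SD, n = 3) and 4168 ± 109 and 4026 ± 754 CPM after LPS. Every other pair of neighbours in this order was separated in all 6 libraries. These are levels of deposited counts, and whether library preparation recovers the arms equally was not tested.

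Stoichiometry was asked next, since the 3 hairpins are cut from 1 transcript. Equal output would give each hairpin the same share of the cluster's counts only if the arms were recovered equally, which was not tested. miR-106b, with both arms summed, gave 6.42% ± 0.489 of the cluster in controls and 6.72% ± 0.575 after LPS (SD, n = 3). miR-93 gave 47.1% ± 0.80 and 47.8% ± 3.49, and miR-25 gave 46.4% ± 1.27 and 45.5% ± 3.92. The first hairpin of the transcript was thus counted far less often than the other two, in both conditions.

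Per library, miR-93 exceeded miR-106b by 7.89-, 7.0- and 7.21-fold in controls and by 6.85-, 7.65- and 6.89-fold after LPS. miR-25 exceeded miR-106b by 8.09-, 6.58- and 7.16-fold in controls and by 5.70-, 6.96- and 7.82-fold after LPS. The ratio of miR-25 to miR-93 was 1.03, 0.939 and 0.992 in controls and 0.832, 0.910 and 1.13 after LPS, on both sides of 1 in each group. The LPS libraries spread over the whole range of this last ratio, with the lowest and the highest value of all 6.

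**Figure D2:**
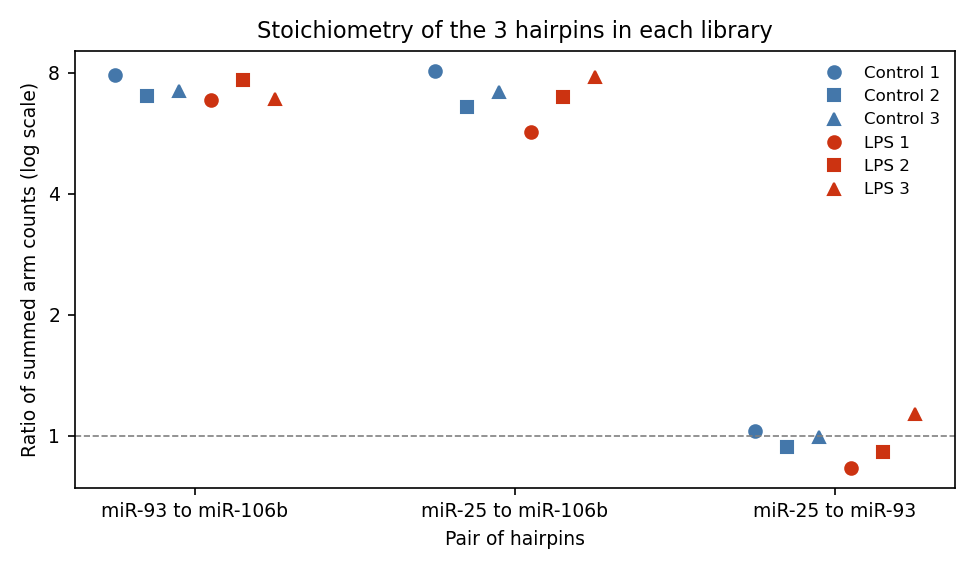
Ratio of the summed arm counts of each pair of hairpins (log axis) in the 3 control (blue) and 3 LPS (red) libraries, with a dashed line at a ratio of 1. miR-93 and miR-25 exceed miR-106b by 5.70- to 8.09-fold in every library, and the ratio of miR-25 to miR-93 runs from 0.832 to 1.13.

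No ratio differed between the groups by more than its spread. On the log2 scale, LPS minus control was -0.047 for miR-93 to miR-106b, -0.099 for miR-25 to miR-106b and -0.052 for miR-25 to miR-93. The two-sided exact permutation tests gave p = 0.5, 0.6 and 0.8, each 0.8 after Benjamini-Hochberg adjustment over the 3 pairs, and 3 against 3 libraries cannot go below 0.1. With only the abundant arm of each hairpin counted, miR-93-5p exceeded miR-106b-5p by 8.81- to 11.7-fold, a wider gap than for the hairpins because miR-106b-3p no longer counted. The direction of each of these small shifts turned when 1 library was left out: control replicate 1 for miR-93 to miR-106b (0.00268) and LPS replicate 1 for the pairs with miR-25 (0.0251 and 0.0445).

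The whole cluster made up 0.912% ± 0.0504 of all miRNA counts in controls and 0.865% ± 0.0822 with LPS. A two-sided exact permutation test gave p = 0.6, and 0.9 after adjustment over 9 shares. Among the arms' shares of the cluster, only that of miR-25-5p had groups that did not overlap. It was 0.114%, 0.0994% and 0.132% in controls and 0.0983%, 0.0540% and 0.0338% after LPS. For this share a two-sided exact permutation test gave p = 0.1, its lowest possible value here (0.9 adjusted over 9 shares). For the other arms the exact permutation p ran from 0.2 to 0.9. The cluster's summed level was 8752, 9035 and 9026 CPM in controls and 8054, 8632 and 9763 CPM after LPS, and the control values lay inside the LPS range. In bulk samples fewer cells of a type and less RNA per cell cannot be told apart, so a level describes the culture as a whole.

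The arm ratios differed widely between the 3 hairpins. miR-106b kept a sizeable 3p arm, while miR-93 and miR-25 gave almost all counts from 1 arm, the 5p arm for miR-93 and the 3p arm for miR-25. miR-106b-3p made up 33.1%, 24.9% and 26.9% of its hairpin's counts in controls and 22.8%, 26.7% and 25.8% after LPS. Control replicate 1 stood above the other 5 libraries, with a 95% Wilson interval of 31.1% to 35.1% that met none of theirs. The other libraries lay within 22.8% and 26.9%.

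miR-93-3p made up 0.426%, 0.610% and 0.727% of the miR-93 counts in controls and 0.638%, 0.666% and 0.646% after LPS. Here control replicate 1 was the lowest library. The 5p arm was 169-fold more abundant than the 3p arm in controls and 153-fold after LPS, by the group means of the share.

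miR-25-5p made up 0.239%, 0.220% and 0.283% of the miR-25 counts in controls and 0.234%, 0.121% and 0.0679% after LPS. LPS replicate 1 lay among the controls, and LPS replicates 2 and 3 lay below them, with 95% Wilson intervals of 0.0775% to 0.189% and 0.0397% to 0.116%. The 2 groups therefore overlapped in this share, although they did not in the level of miR-25-5p. The Wilson intervals of control replicates 1 (0.177% to 0.323%) and 2 (0.160% to 0.304%) met that of LPS replicate 2. That of control replicate 3 (0.214% to 0.374%) did not, and no control interval met that of LPS replicate 3.

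**Figure D3:**
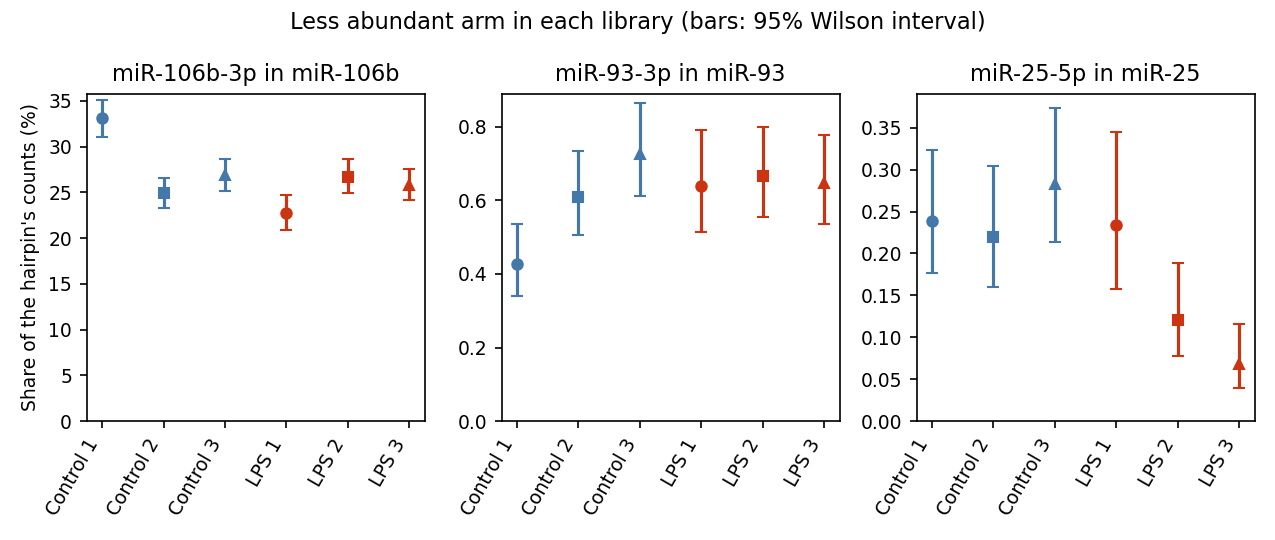
Share of each hairpin's counts that came from its less abundant arm (%), in the 3 control (blue) and 3 LPS (red) libraries, with bars for the 95% Wilson interval of counting error and a separate vertical scale per panel, each from 0. Control replicate 1 stands high for miR-106b-3p and low for miR-93-3p, and LPS replicates 2 and 3 stand low for miR-25-5p.

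The 3 hairpins were ranked among the 100 with matching 5p and 3p names and both arms past the filter on low counts. Arms with a locus suffix on only 1 side, such as miR-92a-1-5p and miR-92a-3p, were not paired. By the share of its less abundant arm, miR-106b ranked 24 from the top, miR-93 ranked 87 and miR-25 ranked 94. The median share over the 100 was 6.83%, with quartiles of 1.20% and 24.1%. miR-106b thus lay just above the upper quartile, and miR-93 and miR-25 lay below the lower one. The abundant arms begin with u (miR-106b-5p), c (miR-93-5p) and c (miR-25-3p) and their partners with c, a and a, so no single first base marked the abundant arm.

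A fit of the difference between arms (limma on log2 CPM of the less abundant minus the abundant arm, over all 100 hairpins) called none of the 3 hairpins changed by LPS, where it called 12.0% of the 100. The difference moved by -0.23 for miR-106b (SE 0.19, 95% interval -0.63 to 0.18), 0.18 for miR-93 (SE 0.22, -0.30 to 0.65) and -0.91 for miR-25 (SE 0.36, -1.67 to -0.14). Limma's adjusted p-values were 0.704, 0.816 and 0.154, and only miR-25 had an unadjusted p below 0.05 (limma, 0.0231). In none of the 3 did the control and LPS shares separate, against 19.0% of the 100 hairpins. Without LPS replicate 1 the difference for miR-25 was -1.34 (limma adjusted p = 0.0153), and without LPS replicate 3 it was -0.505 (0.712).

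The last comparison asked whether 3 h of LPS altered the level of any arm. None of the 6 passed edgeR's quasi-likelihood test at an adjusted p below 0.05, where 5.04% of the 357 miRNAs tested did. One arm of the 6, miR-25-5p, had an unadjusted edgeR p below 0.05, as did 42 of the 357 miRNAs tested. DESeq2 and limma-voom called none of the 6 either, where they called 21 and 18 of the 357. The median log2 fold change of the 6 was -0.02 beside 0.01 for all miRNAs tested.

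For every arm but miR-25-5p the interval of the change reached both sides of 1. The LPS to control ratio was 0.995 for miR-93-5p (95% interval 0.861 to 1.15), 0.973 for miR-25-3p (0.793 to 1.19) and 1.07 for miR-106b-5p (0.869 to 1.32). The less abundant arms miR-106b-3p and miR-93-3p were at 0.920 (0.763 to 1.11) and 1.10 (0.781 to 1.54). Intervals that reach both sides of 1 do not show that the arms stayed the same. They bound the change, most tightly for miR-93-5p.

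The mean level of miR-25-5p was 10.3 ± 1.48 CPM without and 5.29 ± 2.37 CPM with LPS (SD, n = 3), a log2 fold change of -0.99 (SE 0.31, 95% interval -1.68 to -0.30). The unadjusted p was 0.00964 and edgeR's adjusted p was 0.150. Its fold change ranked 6 from the lowest among the 357 miRNAs. Of the 6 arms it was the only one whose groups did not overlap, and 16.0% of all miRNAs tested had groups that did not overlap. Over 13 alternatives the adjusted p ran from 0.0303 to 0.619. It passed without LPS replicate 1 (log2 fold change -1.39, edgeR adjusted p = 0.0303) and with no filter on low counts (-0.96, 0.0473), and the fold change was -0.68 without LPS replicate 3 (0.619). With no filter edgeR's adjusted p of miR-155-5p also fell, from 0.000981 to 5.61e-81, at log2 fold changes of 2.75 and 2.77. The pass of miR-25-5p in that setting is thus weak ground, and why these p-values fell was not tested.

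**Figure D4:**
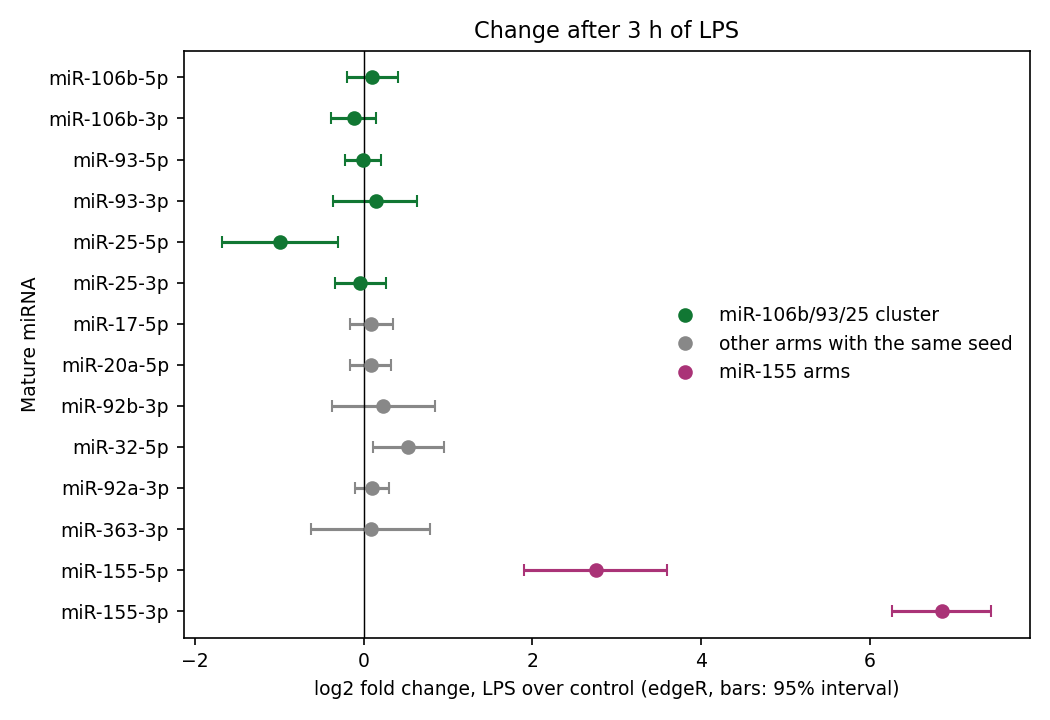
Log2 fold change of LPS over control with its 95% interval (edgeR) for the 6 arms of the cluster (green), the 6 tested arms from other loci with the same seeds (grey) and the miR-155 arms (purple). The intervals of 5 cluster arms cross 0, that of miR-25-5p runs from -1.68 to -0.30, and the miR-155 arms lie far to the right.

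Since targets are chosen by the seed, the cluster was then set among the listed miRNAs with the same seed, as far as RefSeq gave a sequence (1623 of 1907 names), and the family shares below cover those only. For miR-93-5p and miR-106b-5p these are miR-17-5p and miR-20a-5p of the miR-17-92 cluster, miR-106a-5p and miR-20b-5p of the miR-106a-363 cluster, and miR-6383. For miR-25-3p they are miR-92a-3p, which is made from 2 hairpins, one in each of those clusters, and miR-32-5p, miR-92b-3p, miR-363-3p and miR-367-3p. The most abundant relatives are printed for comparison with the sequences above, again with the seed in capitals.
mmu-miR-17-5p: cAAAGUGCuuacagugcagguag
mmu-miR-20a-5p: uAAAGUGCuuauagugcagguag
mmu-miR-92a-3p: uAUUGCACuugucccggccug
miR-93-5p differs from miR-17-5p by 3 single-base edits and miR-25-3p from miR-92a-3p by 4, and miR-106b-5p matches both miR-17-5p and miR-20a-5p at 18 of its 21 positions. How reads that fit several miRNAs were counted is not given in the sources used here, and arms made from several hairpins could be affected. Over all libraries miR-92a-3p averaged 26493 CPM, and miR-19b-3p, which both paralogous clusters also make, averaged 9.90 CPM. Whether either level was affected, and with it the family share of miR-25-3p, was not tested.

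The cluster supplied most of the first family and a minor part of the second. It held 83.2% ± 0.527 of the counts with the seed of miR-93-5p in controls and 82.3% ± 1.04 after LPS (SD, n = 3). miR-93-5p alone held 75.7% ± 0.80 and 74.4% ± 1.49, and miR-106b-5p 7.45% ± 0.828 and 7.89% ± 0.502. miR-25-3p held 13.9% ± 0.334 of its family's counts in controls and 12.7% ± 1.48 after LPS, and nearly all the rest was miR-92a-3p. For both shares the groups overlapped (two-sided exact permutation p = 0.4 for each, 0.9 adjusted over 9 shares). With 3 against 3 libraries this test cannot go below 0.1, so it could not have called a difference. For miR-25-3p, LPS replicates 1 and 2 (11.5% and 12.2%) lay below the controls (13.6% to 14.3%). LPS replicate 3 (14.4%) lay above them.

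**Figure D5:**
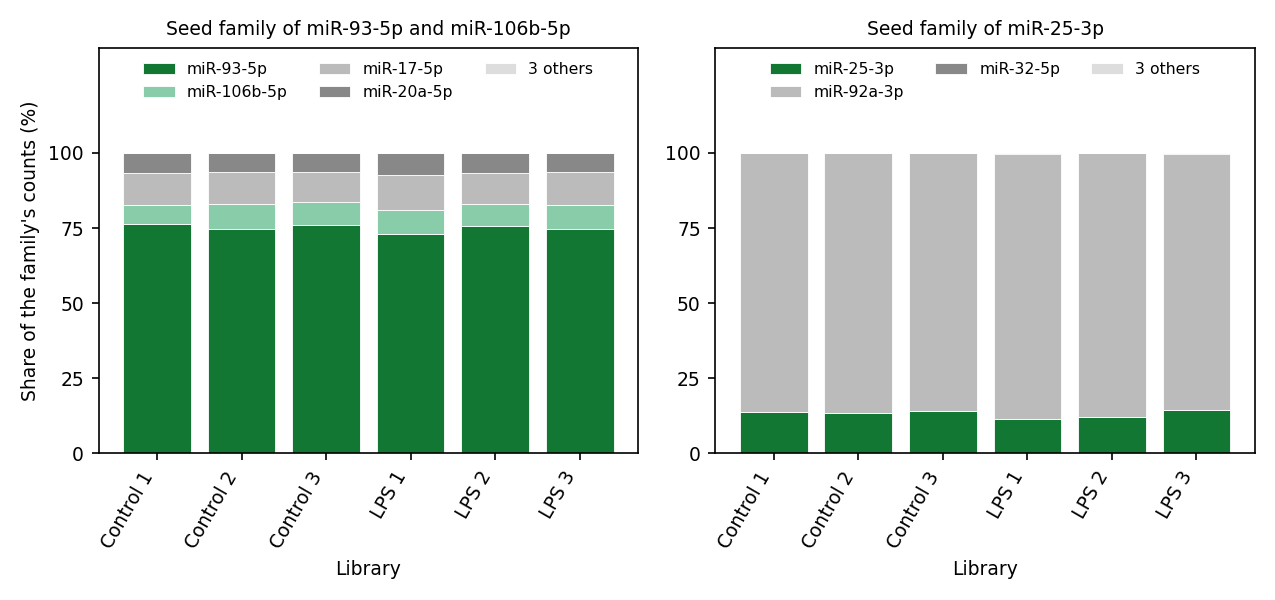
Make-up of the 2 seed families as stacked shares of each family's counts (%) in the 3 control and 3 LPS libraries. Arms of the miR-106b/93/25 cluster (green) hold 81.2% to 83.8% of the family at left and 11.5% to 14.4% of the family at right.

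Among arms with the first seed, miR-93-5p exceeded miR-17-5p by 6.33- to 7.74-fold and miR-20a-5p by 9.97- to 11.9-fold in the 6 libraries. miR-106b-5p was below miR-17-5p in every library, at 0.628 to 0.790 of its counts, and at 0.960 to 1.28 of those of miR-20a-5p. miR-106b-5p and miR-20a-5p were therefore not separated. miR-20b-5p had 1 to 7 counts, miR-106a-5p 0 to 2 and miR-6383 none in any library, and a count of 0 allows up to 3. For the second seed the order was reversed, with miR-92a-3p above miR-25-3p by 5.95- to 7.66-fold.

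The 6 relatives that could be tested did not pass edgeR's test, which 5.04% of the 357 miRNAs tested did pass. The log2 fold changes were 0.09 for miR-17-5p (SE 0.11), 0.08 for miR-20a-5p (SE 0.11), 0.10 for miR-92a-3p (SE 0.09), 0.23 for miR-92b-3p (SE 0.27) and 0.08 for miR-363-3p (SE 0.32). miR-32-5p averaged 37.9 ± 2.21 CPM in unstimulated and 54.8 ± 12.8 CPM in LPS-treated cells, with groups that did not overlap and a log2 fold change of 0.53 (SE 0.19, edgeR unadjusted p = 0.0178, adjusted p = 0.224). The groups of miR-92a-3p did not overlap either, at 25642, 25815 and 25158 CPM in controls and 25879, 27603 and 28861 CPM after LPS. Of all miRNAs tested, 16.0% had groups that did not overlap.

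Of the whole paralogous miR-17-92 cluster, 11 of 12 arms were tested. None of the 11 rose or fell by edgeR, DESeq2 or limma-voom, which called 18, 21 and 18 of the 357 miRNAs tested. At these rates, 0 calls among 11 arms say little about the cluster. None of the 11 arms had an unadjusted edgeR p below 0.05, against 42 of the 357 miRNAs tested. The median log2 fold change of the 11 arms was 0.08, from -0.15 to 0.28. miR-19a-3p was at 266.0 ± 15.3 and 255.7 ± 22.0 CPM. The arms made by the miR-106a-363 cluster alone, without miR-92a-3p and miR-19b-3p, which both paralogous clusters make and which are counted above, had few counts. These 10 arms summed to 6.26 ± 1.36 CPM in controls and 5.91 ± 2.04 CPM after LPS, and 4 of them were at 0 in all libraries. The 1 tested arm among them, miR-363-3p, had 13 to 21 counts and did not pass by any of the 3 tools.

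Outside the cluster, the miRNAs whose profile over the 6 libraries was most like that of the summed cluster were miR-15b-5p, miR-140-3p and miR-30d-3p. Likeness was the root mean square difference of log2 CPM after each profile's own mean was subtracted, and it was 0.043, 0.046 and 0.064 for these 3, among 250 candidates with a median of 0.196. miR-15b-5p was at 818.1, 885.5 and 888.8 CPM in controls and 783.0, 782.5 and 916.5 CPM after LPS, so that like the cluster it peaked in LPS replicate 3. Of the cluster's own arms, miR-93-5p (0.064), miR-25-3p (0.077) and miR-106b-3p (0.078) lay close to the summed profile, and miR-106b-5p (0.160), miR-93-3p (0.256) and miR-25-5p (0.635) lay farther away. The summed profile is mostly miR-93-5p and miR-25-3p, and the libraries share their depth and scaling.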

How the data were processed

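Each file holds the raw counts that the authors deposited for the mature miRNAs of 1 library. The submitters' processing notes name the aligner Novoalign, the tool SAMtools (0.1.19) and the builds GRCm38.p1 and mm10. Which program counted reads, with which annotation and which rule for multiply mapped reads, is not given in the sources used here. Sequences and positions come from RefSeq tables of GRCm38.p6, a later patch of the same assembly, which held 1623 of the 1907 names and all 6 members.

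Changes were tested with edgeR 4.0.16 (R 4.3.3) on all miRNAs that passed filterByExpr with a minimum count of 10. This left 357 miRNAs, the 6 members among them, with 99.974% of all counts. TMM factors (0.960 to 1.053) scaled the CPM, with Benjamini-Hochberg adjustment over the 357. Arm differences were fitted with limma 3.58.1 (prior count 2, variance trend), and DESeq2 1.42.0 and limma-voom were alternatives. Both fits were tested on simulated data with known changes. Replicates were compared pairwise, and each pair differed by more than counting noise (lowest ratio of chi-square to degrees of freedom 28.3). This does not show that they came from separate mice or cultures. All 6 libraries, of 3280688 to 4312555 counts, were kept and treated as replicates.

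The named miRNAs are the 6 members, all listed miRNAs with a member's seed for miR-106b-5p, miR-93-5p or miR-25-3p, up to 4 arms of each paralogous cluster by mean CPM, the 3 most like the summed cluster, and miR-155. The members and lists were chosen with earlier results of these data known.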

Additional observations from a re-analysis of the deposited data

How the results depend on the processing

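Across 8 other settings of the fold change fit (scaling, filter, tool, replicate block) and 6 fits that each left out 1 library, the count of cluster arms called was 0 except with no filter on low counts (1, miR-25-5p at -0.96) and in the range of 0 to 1 when a library was left out. With a minimum count of 50, miR-25-5p was not tested. With no filter the log2 fold change of miR-93-5p was 0.016, of the other sign. Leaving out 1 library gave log2 fold changes of -1.39 to -0.68 for miR-25-5p, -0.15 to 0.034 for miR-25-3p, -0.075 to 0.029 for miR-93-5p, -0.11 to 0.35 for miR-93-3p and -0.064 to 0.20 for miR-106b-5p. Among relatives it gave 0.018 to 0.16 for miR-17-5p, -0.0024 to 0.17 for miR-20a-5p, -0.12 to 0.019 for miR-19a-3p, -0.0012 to 0.39 for miR-92b-3p and -0.18 to 0.32 for miR-363-3p. The count of hairpins of the cluster called for arms ranged from 0 to 1, with arm differences of -1.34 to -0.50 for miR-25, -0.033 to 0.34 for miR-93 and -0.35 to -0.062 for miR-106b (the last without control replicate 1). LPS minus control ranged from -0.099 to 0.0027 for the log2 ratio of miR-93 to miR-106b, -0.20 to 0.025 for miR-25 to miR-106b and -0.18 to 0.045 for miR-25 to miR-93. In percent of the cluster it ranged from -0.73 to 2.59 for miR-93-5p, -3.08 to 0.80 for miR-25-3p and -0.0063 to 0.065 for miR-93-3p. Over the whole table the calls fell from 18 to 11 miRNAs without LPS replicate 3, and arm calls from 12 to 7 hairpins without the variance trend. The causes were not tested.

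Libraries with the same replicate number had weak correlations of deviations (0.02, 0.14 and -0.04 for replicates 1, 2 and 3). Control replicate 1 correlated best with LPS replicate 3 (0.14), control replicate 2 with LPS replicate 2 (0.14) and control replicate 3 with LPS replicate 1 (0.02). With so few libraries, these values cannot tell whether a shared number marks a shared mouse or culture. A replicate block left 0 cluster arms called and 17 of all miRNAs tested, with miR-25-5p at -1.0, and 0 of the 3 hairpins called for arms and 11 of 100. Depth limits miR-25-5p most, at 13 to 49 counts per library.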

Other observations

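The level of miR-25-3p was far more even in controls than after LPS. Its coefficient of variation was 1.55% over the 3 control libraries and 18.7% over the 3 LPS libraries, while that of miR-93-5p from the neighbouring hairpin was 3.16% and 2.62%. The SD of miR-25-3p was 11.7 times as large after LPS as in controls, the highest such ratio among 56 miRNAs with a mean of at least 1000 CPM, whose median ratio was 1.20. The LPS library with the most miR-25-3p, replicate 3, had the least miR-25-5p, and the one with the least miR-25-3p, replicate 1, had the most. This pattern was noticed in the data and rests on 3 libraries a group, and it was not tested.

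In the paralogous miR-17 hairpin, the 3p arm made up 15.9% ± 0.82 (SD, n = 3) of the counts in unstimulated and 14.3% ± 2.2 in LPS-treated cells. In miR-20a it made up 2.49% ± 0.14 and 2.13% ± 0.62. The arms that share the seed of miR-93-5p thus come from hairpins whose 3p shares run from below 1% in miR-93 to over 22% in miR-106b.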
